A study of Mus musculus with 38 samples.

Results

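Bsg, Cst3 and Ly6h encode 3 proteins that neurons make at the endoplasmic reticulum (ER), and their ribosome footprints were picked as leading losses from the pulldowns of depolarized neurons after eIF4G2 knockdown. They were chosen by that readout, 3 of 22401 genes with a mapped coding transcript. Their values in those pulldowns and in the groups those pulldowns were set against are therefore given below as a description, without a test. Against the resting knockdown pulldowns they were among the lowest of well-counted genes. Over their own inputs they were not, as the ranks below show. Tests were limited to pulldowns without knockdown, other than the depolarized TurboID-PSD95 pulldowns, and to inputs.

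The data were PL-Ribo-seq libraries from primary cortical neurons of embryonic CD-1 mice. TurboID, a biotin ligase, was expressed from an inducible lentivirus either with elements of PSD95 that carry it to dendrites (TurboID-PSD95) or without a localization signal (Pan-TurboID), biotinylated complexes were taken on streptavidin, and the mRNA fragments inside ribosomes (footprints) were sequenced. The 38 libraries formed 14 groups, an input and a pulldown of each of 7 conditions, where the input is a small part of the same ribosome fraction. Resting and KCl-depolarized neurons (55 mM for 1 h) carried either bait, with 3 replicates per group. Neurons given DHPG, which activates group I metabotropic glutamate receptors (100 µM for 10 min), carried TurboID-PSD95 with 3 replicates, and neurons given siRNA against eIF4G2 (20 nM for 72 h), resting or depolarized by the same KCl treatment, carried TurboID-PSD95 with 2 replicates. The labels give cycloheximide, which stalls elongating ribosomes, for 2 min and biotin for 30 min, while the study's text gives a shorter biotin time for DHPG. Sample descriptions of the DHPG inputs and of the knockdown libraries name the cytosol, whereas their lentivirus field names PSD95-TurboID, which was followed here. Knockdown controls with a non-targeting siRNA were not analysed here, so that knockdown and experiment cannot be told apart.

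Proteins bound for the cell surface or for secretion start with a hydrophobic signal sequence, which emerges from the ribosome early, is met by the signal recognition particle and directs the ribosome to the Sec61 channel of the ER. Bsg (basigin, CD147) is a type I membrane glycoprotein of the immunoglobulin superfamily and the ancillary subunit that brings monocarboxylate transporters to the cell surface. Cst3 (cystatin C) is a secreted inhibitor of cysteine cathepsins. Ly6h is a Ly6-domain protein held at the surface by a glycosylphosphatidylinositol (GPI) anchor, and it binds nicotinic acetylcholine receptors.

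Counts of the longest transcript were used (Bsg ENSMUST00000067036, Cst3 ENSMUST00000028938, Ly6h ENSMUST00000163116). The coding sequence (CDS) of Bsg lies on the plus strand of mm10 at chr10:79704518-79711557 and has 8 segments, 1 per coding exon. That of Cst3 lies on the minus strand at chr2:148871960-148875377 and has 3 segments, and that of Ly6h on the minus strand at chr15:75565106-75566198 with 3 segments. The Bsg CDS was 1170 nt long, the Cst3 CDS 423 nt and the Ly6h CDS 420 nt. The longest Bsg transcript includes an exon of 348 nt at chr10:79708697-79709044 that belongs to the form of basigin known from the retina. This exon held 89 of 173407 Bsg counts over all libraries (0.0513%), so nearly all Bsg footprints lay in exons of the shorter form.

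The windows around the start codons are shown because the share of counts on both sides of them differed between inputs and pulldowns. Each has 30 bases of the reference genome, in the direction of the transcript, with the start codon in capitals (Bsg chr10:79704506-79704535, Cst3 chr2:148875360-148875389, Ly6h chr15:75566181-75566210, mm10).
Bsg start: ggacgaggcgacATGgcggcggcgctgctg
Cst3 start: tcctagccaaccATGgccagcccgctgcgc
Ly6h start: ccctatcggagcATGctgcctgcagccatg

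The next windows are shown because 1 CDS segment of each gene carried most of what distinguished the resting knockdown pulldowns. Each has the last 15 bases of the segment before and, in capitals, the first 15 bases of that segment. The segments are segment 4 of Bsg (chr10:79710058-79710140, 83 nt), segment 2 of Cst3 (chr2:148872817-148872930, 114 nt) and segment 3 of Ly6h (chr15:75565106-75565341, 236 nt).
Bsg segment 4: gcatacgaagtacatAGTGGACGCAGATGA
Cst3 segment 2: agagctcgtaagcagCTCGTGGCTGGAGTG
Ly6h segment 3: ccgaccccagcagcaGCAGGAAGGATCATT
Cut into consecutive windows of 30 bases, these segments gave 2, 3 and 7 windows, and each window matched the mm10 genome at 1 place. The GC content of the segments was 54.2% for Bsg, 49.1% for Cst3 and 56.8% for Ly6h, against 58.6%, 57.7% and 60.7% for the whole CDSs.

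The libraries held 5906281 to 35643247 counts, of which 2048601 to 14646331 lay in the CDSs of longest transcripts. Levels are CPM, counts scaled to the CDS total of each library in the usual way. Eif4g2 itself, the targeted gene, was at 284 and 284 CPM in the resting knockdown inputs and at 337 and 323 CPM in the depolarized ones, against 444 to 811 CPM over the other 15 inputs. The resting knockdown inputs lay 0.98 ± 0.19 (SE) lower than the resting TurboID-PSD95 inputs on the log2 scale (edgeR adjusted p = 0.0038), and the lower level was present in 4 of 4 knockdown inputs. The 10 neuronal markers summed to 8112 to 11747 CPM over the inputs, the 10 microglial markers to 1.28 to 29.6 CPM, the 10 astrocyte markers to 358 to 1603 CPM and the 10 endothelial markers to 29.1 to 146 CPM. Progenitor markers summed to 333 to 2512 CPM, fibroblast and meningeal markers to 93.7 to 827 CPM and oligodendrocyte markers to 66.8 to 659 CPM. The microglial sum was 19.6 to 21.9 CPM in resting and 21.2 to 29.6 CPM in depolarized knockdown inputs, and at most 5.73 CPM in the other inputs. Cst3 is also made by glia and Bsg by endothelium, and the part of other cells in their levels was not tested. Marker sums also differed between both sets of knockdown pulldowns. From the resting to the depolarized ones the neuronal sum went from 7773 to 7814 CPM to 5746 to 5749 CPM, the same direction as the 3 genes. In the opposite direction, the sum of 6 progenitor markers went from 872 to 880 CPM to 1557 to 1596 CPM, that of 7 fibroblast and meningeal markers from 262 to 279 CPM to 386 to 411 CPM, and that of the astrocyte markers from 691 to 826 CPM to 957 to 1229 CPM. The sums of microglial, endothelial and oligodendrocyte markers overlapped between both sets. The knockdown inputs shifted alike from rest to KCl. Their mean neuronal sum went from 10222 to 8187 CPM, that of progenitors from 1498 to 2464 CPM and that of fibroblasts and meninges from 502 to 806 CPM. In these inputs all 3 genes were higher after KCl than at rest. The part of these shifts in the levels of the 3 genes was not tested.

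In the depolarized knockdown pulldowns the 3 genes lay below the inputs and below the resting knockdown pulldowns. Bsg stood at 231 and 234 CPM in these pulldowns. The inputs of the same cultures held 764 and 804 CPM. The resting knockdown pulldowns held 1102 and 1620 CPM, the highest group mean of the 14. The groups, of 2 libraries each, did not overlap, and how many of all genes were apart in this way was not counted. The depolarized knockdown pulldown held 29.7% of its input and 17.1% of the resting knockdown pulldown.

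Cst3 stood at 198 and 185 CPM in the depolarized knockdown pulldowns, 529 and 590 CPM in their inputs and 634 and 681 CPM in the resting knockdown pulldowns. Again the 3 groups were apart, which was not counted over all genes, with 34.2% of the input and 29.1% of the resting knockdown pulldown left. Yet the depolarized pulldowns without knockdown spread from 156 to 354 CPM and overlapped those with knockdown. The means were 192 CPM with and 249 CPM without knockdown (77.0%), a difference that these libraries leave unsettled. The resting TurboID-PSD95 pulldowns without knockdown held 123 to 230 CPM.

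Ly6h stood at 87.8 and 97.2 CPM in the depolarized knockdown pulldowns, the lowest group of the 14. Their inputs held 262 and 265 CPM and the resting knockdown pulldowns 358 and 399 CPM. The level was 35.1% of the input and 24.5% of the resting knockdown pulldown. Counts behind these pulldown values were 605 and 499 for Bsg, 519 and 394 for Cst3, and 230 and 207 for Ly6h.

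**Figure D1:**
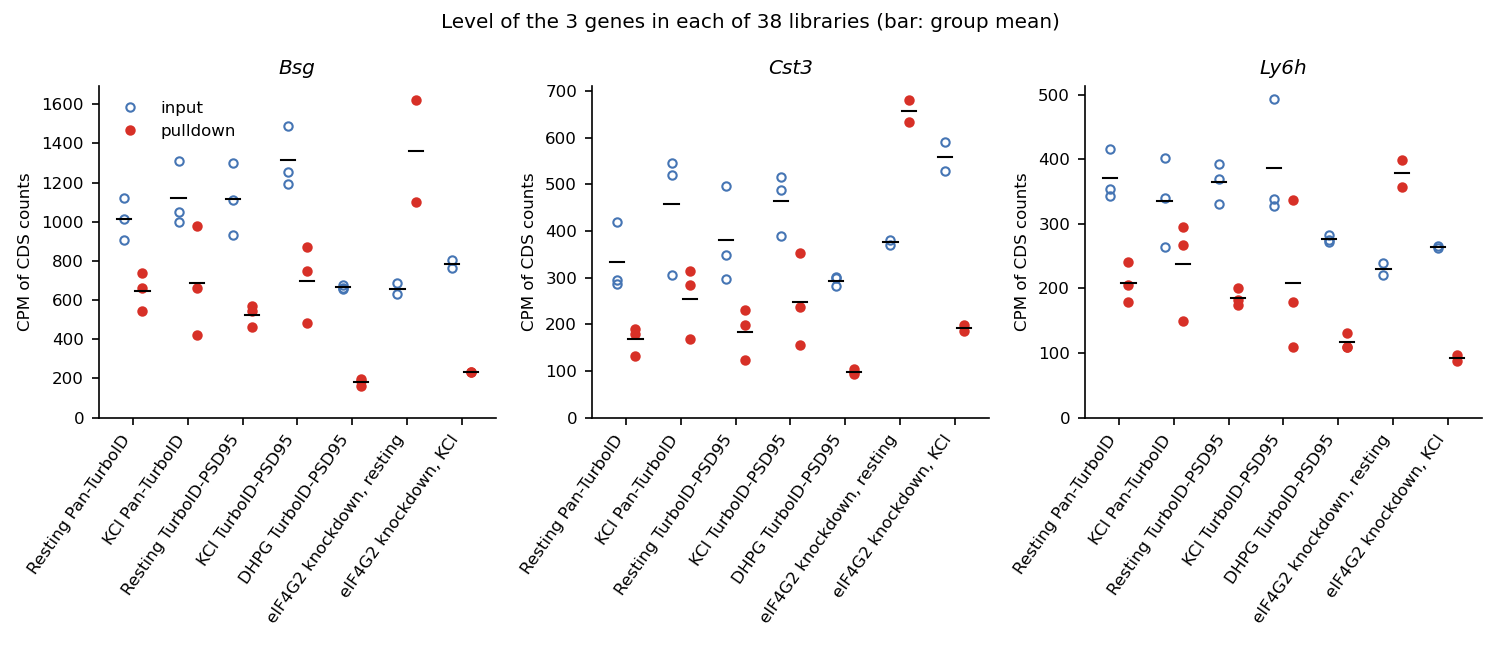
CPM (y axis) of Bsg, Cst3 and Ly6h in inputs (open blue points) and pulldowns (filled red points) of 7 conditions, 1 point per library, with the group mean as a bar. Pulldowns lie below inputs on average in each condition except the resting knockdown, where the 2 pulldowns of each gene lie above both inputs.

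The other groups place these levels. For Bsg, the inputs of the KCl experiment held 908 to 1490 CPM and the pulldowns 424 to 978 CPM. The DHPG inputs held 656 to 676 CPM and the DHPG pulldowns 164 to 197 CPM, below the depolarized knockdown pulldowns. Neighbours in the order of Bsg means overlapped between the first and the fifth group and between the sixth and the twelfth, while the resting TurboID-PSD95, depolarized knockdown and DHPG pulldowns at the low end were apart from each other. In the KCl experiment Cst3 inputs spanned 286 to 546 CPM and Cst3 pulldowns 123 to 354 CPM. Ly6h inputs spanned 264 to 493 CPM and Ly6h pulldowns 110 to 337 CPM. Pooled over these 4 conditions the fractions thus overlapped for each of the 3 genes. Each pulldown still lay below the input of its own number, which was not counted over all genes. For Cst3, DHPG pulldowns were lowest at 92.5 to 105 CPM, apart from the next group. For Ly6h, DHPG pulldowns at 109 to 131 CPM were next to the depolarized knockdown pulldowns and apart from them. How many of all genes had groups apart in these ways was not counted. Per kilobase of CDS, the resting TurboID-PSD95 inputs averaged 952 CPM for Bsg, 901 CPM for Cst3 and 868 CPM for Ly6h. The Bsg value is low by the length of the unused exon, without which the CDS has 822 nt.

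Fitted against its own input, the depolarized knockdown pulldown was lower by 1.65 ± 0.12 (SE) on the log2 scale for Bsg, by 1.44 ± 0.10 for Cst3 and by 1.41 ± 0.12 for Ly6h. In this comparison 24.8% of 12239 genes passed an FDR of 0.05 in the lower and 24% in the higher direction, and 8.08%, 11.4% and 11.8% of genes had a lower fold change than Bsg, Cst3 and Ly6h, respectively. Against the resting knockdown pulldown, the fitted decreases were larger, 2.54 ± 0.12 for Bsg, 1.77 ± 0.10 for Cst3 and 2.03 ± 0.12 for Ly6h, where 12% of genes passed in the lower and 10.2% in the higher direction. Among 2236 genes with a mean of at least 100 CPM, Bsg ranked 1, Ly6h 6 and Cst3 12 from the lowest in this comparison, and among 9210 genes with at least 10 CPM they ranked 13, 56 and 100. These ranks are close to the choice itself and show what was selected. Against the depolarized pulldown without knockdown, the fitted differences were -1.52 ± 0.23 for Bsg, -1.10 ± 0.28 for Ly6h and -0.30 ± 0.26 for Cst3, where 11% of genes passed in the lower and 7.93% in the higher direction. The Cst3 difference had no settled sign, with 0.080 on leaving out replicate 2 and 0.30 with the trend on CDS length removed, and that of Ly6h became -0.65 and -0.44.

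The resting knockdown pulldowns themselves stood apart from the other pulldowns. In the resting knockdown, the pulldowns held 206% of the input level of Bsg, 175% of that of Cst3 and 165% of that of Ly6h, and the fit put them 1.15 ± 0.11, 0.92 ± 0.09 and 0.83 ± 0.10 above the inputs on the log2 scale, where 22.1% of genes passed in the higher and 23.4% in the lower direction. Most of this excess lay in 1 segment of each gene. For Bsg the segment before it, segment 3, was higher as well, at 270 ± 54.3 CPM (SD, n = 2) in the pulldowns and 172 ± 1.11 CPM in the inputs, though its share of the Bsg counts was lower (20.0% and 26.2%).

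Segment 4 of Bsg, 7.09% of the CDS, took 60.9% and 67.6% of the Bsg counts of the resting knockdown pulldowns. Its share was 6.88% and 6.13% in their inputs and 22.6% and 12.6% in the depolarized knockdown pulldowns. The depolarized knockdown inputs had 5.70% and 5.85%, and in the 10 groups without knockdown the share lay between 3.23% and 20.4%. The segment stood at 671 and 1095 CPM in the resting and at 52.3 and 29.6 CPM in the depolarized knockdown pulldowns, so that the sets were apart but the libraries within each differed widely.

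Segment 2 of Cst3, 27.0% of the CDS, took 69.8% and 66.9% of the counts of the resting knockdown pulldowns. The inputs of those cultures gave it 20.4% and 20.0%, and the depolarized knockdown pulldowns 39.7% and 39.1%. The segment stood at 449 ± 9.25 CPM (SD, n = 2) in the resting and 75.5 ± 4.42 CPM in the depolarized knockdown pulldowns, a ratio of 5.95. Its share was 18.4% and 11.9% in the depolarized knockdown inputs and 9.66% to 43.5% over the 10 groups without knockdown.

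Segment 3 of Ly6h, 56.2% of the CDS, took 88.8% and 91.2% of the counts of the resting knockdown pulldowns. It had 64.8% and 61.2% in their inputs, 58.3% and 59.9% in the depolarized knockdown pulldowns, and 46.9% and 44.2% in the inputs of those. The segment stood at 341 ± 32.4 CPM in the resting and 54.7 ± 5.04 CPM in the depolarized knockdown pulldowns, a ratio of 6.23. In all 3 genes both resting knockdown pulldowns had a higher share in the segment than each of the other 36 libraries. Each segment was chosen as the one with most counts in those same pulldowns, which favours this order. How many of all genes show it was not counted.

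**Figure D2:**
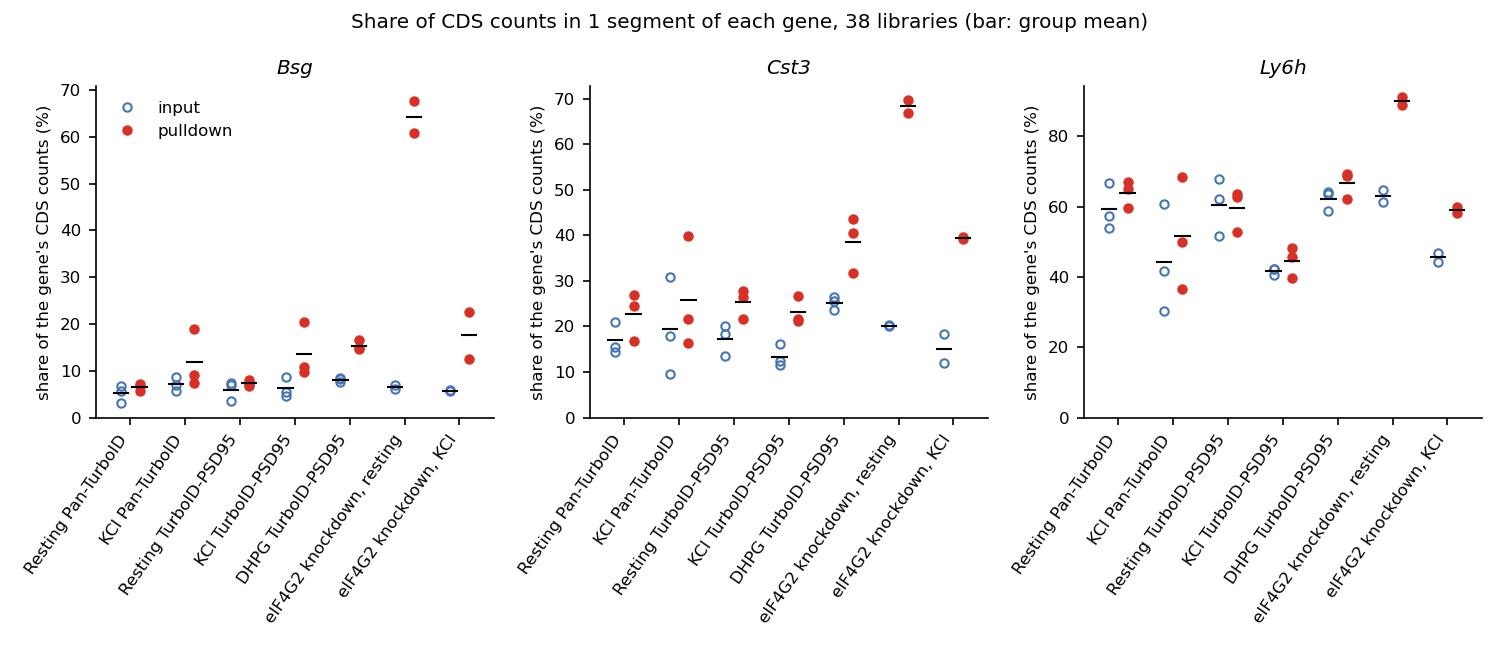
Share of the CDS counts of each gene (y axis, percent) in Bsg segment 4, Cst3 segment 2 and Ly6h segment 3, 1 point per library, inputs open blue and pulldowns filled red, with the group mean as a bar. The 2 resting knockdown pulldowns stand above the other 36 libraries in each panel, at 60.9% and 67.6% for Bsg, 69.8% and 66.9% for Cst3, and 88.8% and 91.2% for Ly6h. Each segment was chosen as the one with most counts in those 2 pulldowns.

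These segments accounted for 74.6% of the CPM by which the depolarized lay below the resting knockdown pulldown for Bsg, 80.1% for Cst3 and 100.1% for Ly6h. Outside the segment, Bsg stood at 478 CPM in the resting and 192 CPM in the depolarized knockdown pulldown, Cst3 at 209 and 116 CPM, and Ly6h at 37.5 and 37.8 CPM. Refitted without the segment, the decrease from the resting to the depolarized knockdown pulldown was 1.31 ± 0.11 for Bsg and 0.83 ± 0.12 for Cst3. For Ly6h the fitted difference was 0.0023 ± 0.20, smaller than its SE. The decrease against the input, by contrast, was larger without the segment, at 1.85 ± 0.11 for Bsg, 1.93 ± 0.12 for Cst3 and 1.82 ± 0.18 for Ly6h. Without it, the resting knockdown pulldowns lay below their inputs too, by 0.26 ± 0.10, 0.42 ± 0.11 and 1.06 ± 0.17.

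**Figure D3:**
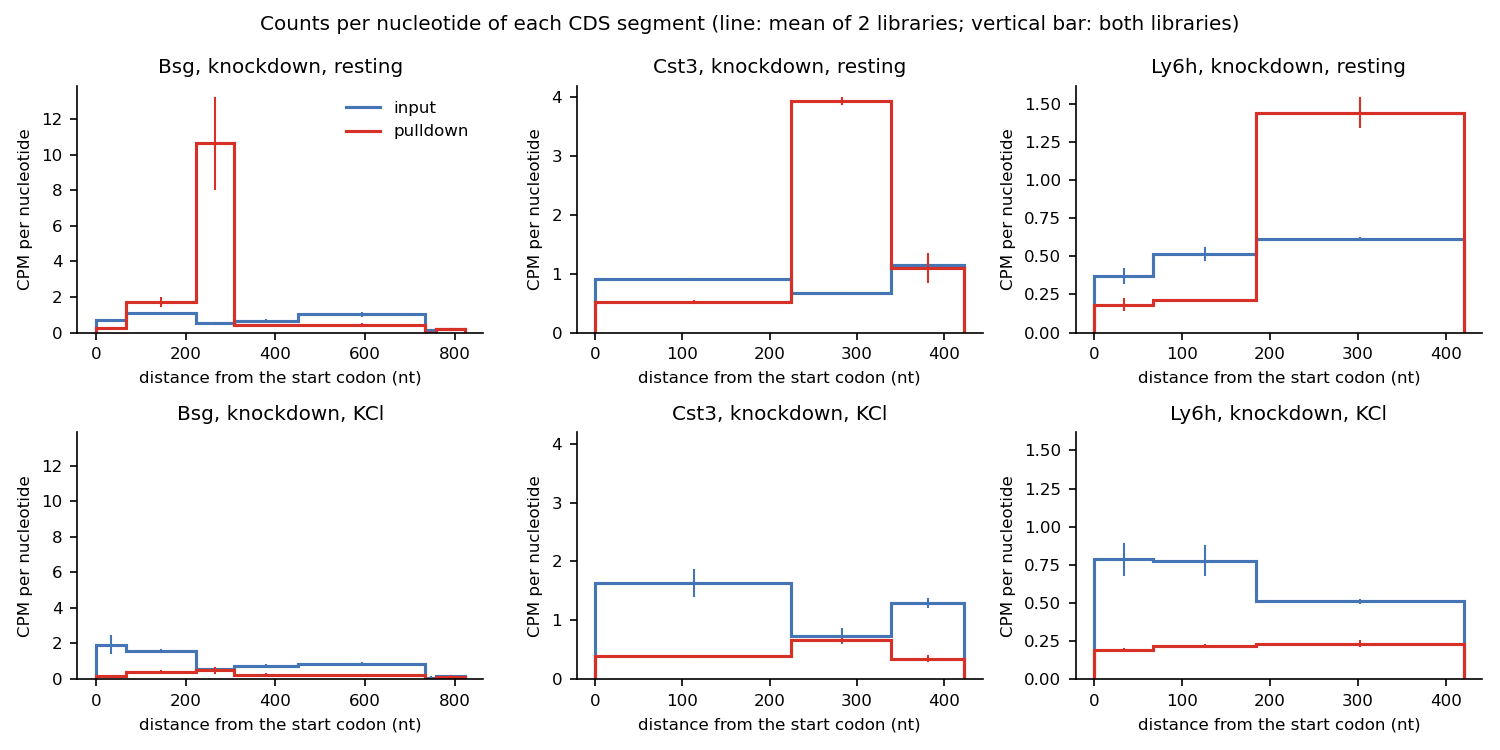
CPM per nucleotide of each CDS segment (y axis) against the distance from the start codon in nucleotides (x axis), without the unused Bsg exon, for resting (top) and depolarized (bottom) knockdown libraries. Lines are means of 2 libraries, vertical bars join both libraries, inputs are blue and pulldowns red. The resting pulldown rises most above its input in 1 segment of each gene (for Bsg also in the segment before it). There the mean of the depolarized pulldowns lies below that of their inputs, with overlapping libraries for Bsg and Cst3.

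The position of these segments is a description, since they were found in the pulldowns that entered the choice of genes. Counted from the first base of the start codon, without the unused exon, Bsg segment 4 spans nucleotides 225 to 307, Cst3 segment 2 spans 226 to 339 and Ly6h segment 3 spans 185 to 420. The 3 segments share nucleotides 226 to 307, codons 76 to 103, where the Ly6h segment takes 56.2% of its CDS. Regions of other transcripts that overlap the segments divide their counts. Of the 5606 counts in Bsg segment 4 in the resting knockdown pulldowns, at least 5044 (90.0%) had their 5′ end in its first 47 nt, against at least 84.5% in the resting knockdown inputs. Of 3071 counts in Cst3 segment 2, 2451 (79.8%) lay in its first 83 nt, against 82.6% in the inputs, and the intron behind the segment held 0 counts. Of 2292 counts in Ly6h segment 3, 1459 (63.7%) lay in its first 129 nt, against 39.0% in the inputs. For Bsg and Cst3 most counts of the segment lay in this first part in pulldowns and inputs alike, so most of the excess lay there too. The share of the first part within the segment was much the same as in inputs for these genes, unlike for Ly6h. Positions are those of the 5′ ends of footprints, which lie upstream of the codon being decoded, and counts per segment cannot place the ends more finely.

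A gain of this kind was then looked for in all genes. With at least 200 counts in both groups and at least 2 segments, 5243 genes could be compared between resting knockdown pulldowns and inputs, and in 513 of them (9.78%) 1 segment gained at least 20 percentage points of share. The gain was 57.3 points for Bsg, the fifth highest, 48.5 points for Cst3 (rank 13) and 27.0 points for Ly6h (rank 209), against a median best gain of 8.66 points over all genes. All 3 members exceeded 20 points there. The same threshold was passed by 12.8% of genes in the depolarized knockdown, 13.8% in DHPG, 6.62% in the resting and 3.41% in the depolarized TurboID-PSD95 comparison, and 4.11% and 5.17% with Pan-TurboID, and among the members by Cst3 alone, in the depolarized knockdown (23.6 points).

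The gains of the resting knockdown pulldowns were counted in the gene lists as a description, without a test. Of 21 secreted proteins of neurons and glia, 13 passed (61.9%), and the gaining segment of 13 of 13 overlapped nucleotides 226 to 307, the stretch shared by the 3 segments. Their gaining segments started at a median of nucleotide 205 and ended at 376. They included Timp2, an inhibitor of metalloproteinases, with 77.4% of its counts in the segment in the pulldown and 13.9% in the input. Sparc, a matrix protein, had 68.2% and 9.14%, and Scg3, a granin of secretory granules, 70.7% and 19.8%. Overlap of any length counted, also for long segments such as that of Sparcl1 (nucleotides 184 to 1179). Passing or not, the segment with the highest gain overlapped the stretch in 76.2% of the secreted proteins here. In the other pulldown comparisons this was 33.3% to 50% of that list. Of 14 proteins of ER folding, 5 passed (35.7%), with 5 of 5 segments over the stretch, such as P4hb, a protein disulfide isomerase (64.4% and 14.6%), and the chaperones Calr (51.2% and 18.2%) and Hspa5 (51.3% and 18.4%). Of 15 GPI-anchored proteins outside the Ly6 family 4 passed (26.7%), and of 24 type I membrane proteins 5 passed (20.8%), among them App (31.1% and 3.47%). Of 4 lysosomal cysteine proteases, the class that Cst3 inhibits, 4 passed, Ctsb (cathepsin B) with 44.9% and 11.5%. Of 17 genes of ER targeting and translocation 4 passed (23.5%), a share between those of type I membrane and GPI-anchored proteins, with 2 of 4 segments over the stretch. Of 6 genes that make or attach GPI anchors 1 passed. Of 3 nicotinic receptor subunits, 2 monocarboxylate transporters and 2 cyclophilins 0 passed.

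Of 26 cytosolic proteins 1 passed (3.85%), the tubulin Tuba1a, and its segment lay outside the stretch. Over all genes, 159 of the 513 gaining segments (31.0%) overlapped the stretch in the resting knockdown, 54 of 484 (11.2%) in the depolarized knockdown and 82 of 1090 (7.52%) in DHPG. The stretch and the threshold were set after these values were seen, and the shares are descriptions of 2 pulldown libraries against 2 inputs. In the depolarized knockdown 5 of 21 secreted proteins (23.8%) and 0 of 13 ER folding proteins passed, against 12.8% of all genes. In DHPG 5 of 24 secreted (20.8%) and 0 of 16 ER folding proteins passed, against 13.8% of all genes. The ER targeting and translocation list ran the other way, with 6 of 13 (46.2%) in the depolarized knockdown and 7 of 22 (31.8%) in DHPG. Of the cytosolic proteins 3 of 26 (11.5%) passed in the depolarized knockdown, near the share of all genes, and 6 of 27 (22.2%) in DHPG.

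**Figure D4:**
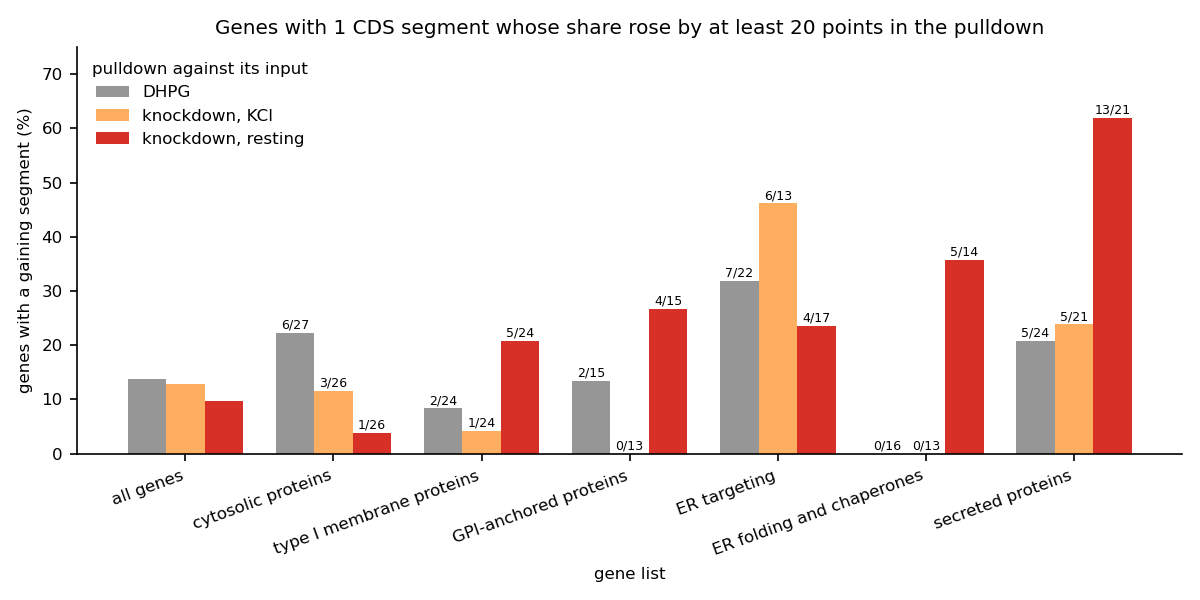
Percent of genes (y axis), among all genes and in the 6 gene lists with at least 10 genes compared (x axis), in which 1 CDS segment gained at least 20 points of share in the pulldown over its input, for DHPG (grey), depolarized knockdown (orange) and resting knockdown (red), with the number of genes above each list bar. In the resting knockdown the share is 61.9% of secreted proteins and 3.85% of cytosolic proteins, against 9.78% of all genes, while the ER targeting list is highest in the depolarized knockdown at 46.2%.

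The genes whose levels ran most like those of the members were sought by correlation. Pearson's r of log2(CPM + 0.5) was taken over the 14 group means among 9231 genes with a mean of at least 10 CPM, and is a description, since groups share cultures. Most like Bsg were Cd99l2 (r = 0.99), Emc7 (0.98), Ssr2 (0.96), Tmem9 (0.96) and Ly6h (0.96). Most like Cst3 were Npc2 (0.98), Gm2a (0.97), Sdc2 (0.95), Timp2 (0.95) and Cd164 (0.93). Most like Ly6h were Bsg (0.96), Parm1 (0.96), L1cam (0.95), Emc7 (0.94) and Cd99l2 (0.94), and Cst3 reached 0.84 with Bsg and 0.80 with Ly6h. Npc2 and Gm2a carry lipids in the lysosome, Ssr2 is a subunit of the translocon-associated complex, and L1cam is an adhesion molecule of axons. Npc2 stood at 186 CPM in the resting and 35.5 CPM in the depolarized knockdown pulldown, and L1cam at 2191 and 1057 CPM. Of the 11 of these genes outside the members that had enough counts, 10 had a gaining segment in the resting knockdown pulldowns, where the level itself enters both measures.

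Whether the members were low in pulldowns in general was tested between groups that the choice did not use. In the KCl experiment the depolarized TurboID-PSD95 pulldowns, which may have been used, shared the fit. In resting neurons, the TurboID-PSD95 pulldowns held 462 to 572 CPM of Bsg against 908 to 1300 CPM over both sets of resting inputs. They held 123 to 230 CPM of Cst3 against 286 to 497 CPM, and 174 to 201 CPM of Ly6h against 331 to 415 CPM. No pulldown reached the range of the inputs for any of the 3 genes, and how many of all genes were apart in this way was not counted. Bsg fell by 0.98 ± 0.21 (SE) on the log2 scale, Cst3 by 0.92 ± 0.24 and Ly6h by 0.96 ± 0.24, with edgeR adjusted p = 0.0019, 0.0063 and 0.0054. All 3 members passed in the lower direction, as did 16.4% of 13019 genes, while 14.7% passed in the higher direction. Short genes fell more often, 44.8% of those with a CDS of 300 to 600 nt, and with the trend on CDS length removed Cst3 (-0.083, adjusted p = 0.78) and Ly6h (-0.095, adjusted p = 0.74) no longer passed. Without replicate 3, where 16 genes passed in all, the 3 fold changes kept their direction and the adjusted p rose to 0.085, 0.12 and 0.14.

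With Pan-TurboID, 1 of the 3 members passed at rest. These pulldowns held 544 to 740 CPM of Bsg against 908 to 1122 CPM in the inputs, and the change of -0.60 ± 0.23 did not pass (adjusted p = 0.091). Cst3, at 132 to 190 CPM against 286 to 420 CPM, fell by 0.95 ± 0.27 (adjusted p = 0.033). Ly6h, at 179 to 241 CPM against 344 to 415 CPM, had a change of -0.78 ± 0.27 (adjusted p = 0.061). In this comparison 5.05% of genes passed in the lower and 4.57% in the higher direction. With the replicate number as a block, Bsg and Ly6h passed as well (edgeR adjusted p = 0.016 and 0.013). A block held all libraries of 1 number in the KCl experiment, so several cultures and not a single pair of input and pulldown. In that fit 1299 of 13019 genes passed in the lower direction, against 658 without the block. Without replicate 2 or 3 Cst3 no longer passed (adjusted p = 0.17 and 0.29, with 0.033 without replicate 1), and with the trend on CDS length removed its change was -0.19.

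After depolarization without knockdown, the Pan-TurboID pulldowns gave changes of -0.67 ± 0.23 for Bsg, -0.79 ± 0.27 for Cst3 and -0.45 ± 0.27 for Ly6h, and none passed (adjusted p = 0.063, 0.058 and 0.26), where 3.63% of genes passed in the lower and 5.15% in the higher direction. Blocked by replicate, Bsg (edgeR adjusted p = 0.0081) and Cst3 (0.033) passed and Ly6h (0.12) did not. There 1146 of 13019 genes passed in the lower direction, against 473 without the block. The depolarized TurboID-PSD95 pulldown, which may have been part of the choice, lay 0.78 ± 0.21, 0.87 ± 0.24 and 0.77 ± 0.24 below the inputs.

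In DHPG all 3 members passed. The pulldowns held 164, 186 and 197 CPM of Bsg against 656, 662 and 676 CPM in the inputs. Cst3 stood at 97.6, 92.5 and 105 CPM against 300, 281 and 299 CPM, and Ly6h at 110, 109 and 131 CPM against 275, 283 and 272 CPM. Pulldown and input libraries did not overlap for any of the 3 genes, and this was not counted over all genes either. Bsg fell by 1.65 ± 0.07, Cst3 by 1.37 ± 0.07 and Ly6h by 1.04 ± 0.07 on the log2 scale (edgeR adjusted p = 3.0e-13, 2.7e-12 and 2.3e-10). In this comparison 39.3% of 12273 genes passed in the lower and 40.5% in the higher direction, and 6.47%, 14.1% and 22.3% of genes had a lower fold change than Bsg, Cst3 and Ly6h. Of genes with a CDS of 300 to 600 nt 86.7% passed in the lower direction, and with the length trend removed Cst3 kept -0.17 and Ly6h turned to 0.16.

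CDS length went with these differences. Genes with a CDS of 300 to 600 nt, the class of Cst3 and Ly6h, had a median log2 fold change of -0.91 in the resting TurboID-PSD95 comparison (1494 genes), -1.37 in DHPG (1395 genes) and -1.20 in the depolarized knockdown pulldown over its input (1380 genes). Genes of 900 to 1500 nt, the class of Bsg, had medians of -0.036, 0.011 and -0.058. That class rests on the full length of the longest transcript, and for genes of 600 to 900 nt, where Bsg falls without its unused exon, the medians were -0.45 (1724 genes), -0.75 (1600 genes) and -0.64 (1607 genes). With the trend on CDS length removed, the resting change of Bsg was -0.91 (adjusted p = 0.0018), while those of Cst3 and Ly6h ended as given above. In DHPG it was -1.57 (7.1e-13) for Bsg, with adjusted p = 0.028 for Cst3 and 0.035 for the opposite sign of Ly6h. The depolarized knockdown pulldown over its input became -1.52, -0.29 and -0.26. With the length of Bsg taken without the unused exon, its changes in these comparisons were -0.65 (0.0098), -1.12 (1.9e-11) and -1.16. The comparison of both knockdown pulldowns gave -2.48, -1.90 and -2.16, and there the class of 300 to 600 nt had a median of 0.16.

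**Figure D5:**
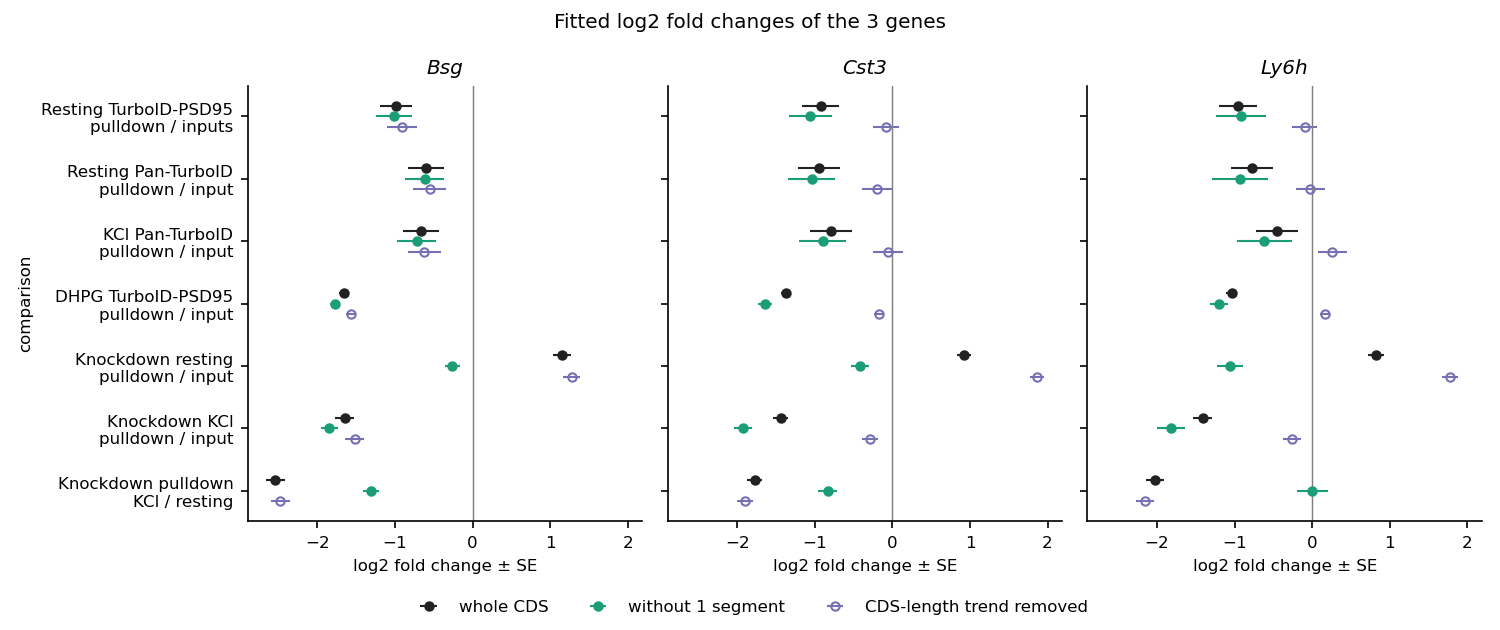
Fitted log2 fold changes (x axis, points) with SE (bars) of the 3 genes in 7 comparisons (y axis), for the whole CDS (black), without the segment named in the text (green) and with the trend on CDS length removed (open violet). In the resting knockdown the black points lie above 0 and the green points below, and for Cst3 and Ly6h the violet points of the pulldowns outside the knockdown lie near 0.

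The inputs showed how total footprints responded. KCl changed Bsg by 0.22 ± 0.16, Cst3 by 0.40 ± 0.19 and Ly6h by -0.0015 ± 0.19 on the log2 scale over both baits, and none passed (adjusted p = 0.41, 0.15 and 1.00), where 6.32% of genes passed in the higher and 9.03% in the lower direction. Without replicate 1, Cst3 passed with a change of 0.73 (adjusted p = 0.0047). In the knockdown, depolarized inputs lay 0.26 ± 0.11, 0.59 ± 0.09 and 0.21 ± 0.10 above resting inputs. The resting knockdown inputs had 631 and 687 CPM of Bsg, against 931, 1111 and 1300 CPM in resting TurboID-PSD95 inputs, a change of -0.74 ± 0.22 that did not pass (adjusted p = 0.063). Ly6h changed by -0.64 ± 0.27 (adjusted p = 0.21) and Cst3 by 0.01 ± 0.25 (adjusted p = 0.99), where 2.01% of 13197 genes passed in the lower and 1.89% in the higher direction. Fitted on these 5 libraries alone, both Bsg and Ly6h passed (edgeR adjusted p = 0.0090 and 0.0053). In that fit 1115 of 12737 genes passed in the lower direction, against 265 of 13197 before.

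Footprints were also placed differently along the mRNAs in pulldowns. The test was over 12 cultures that gave both libraries, but libraries with the same number were processed together, and at rest those of both baits deviated alike (r from 0.26 to 0.60 over all genes), so the 12 pairs were also averaged into 6 sets of 1 replicate number and experiment, for which an exact p cannot go below 0.031. After adjustment over 9 tests none of the 9 passed over sets. Over the 12 cultures, at rest, after DHPG and in depolarized Pan-TurboID neurons, the 5′ UTR share of all Cst3 counts was 19.6% ± 6.0 (SD, n = 12) in pulldowns and 31.3% ± 4.0 in inputs. It was lower in 12 of 12 pairs (exact paired permutation test, two-sided, p = 0.00049, the smallest these pairs allow, adjusted p = 0.0015 over 9 tests), and in 6 of 6 sets (exact p = 0.031, adjusted 0.056). That of Ly6h was 22.1% ± 5.2 and 29.7% ± 5.6, lower in 12 of 12 pairs and 6 of 6 sets (the same exact p-values). That of Bsg was 8.61% ± 3.15 and 13.3% ± 4.1, lower in 11 of 12 pairs (exact permutation p = 0.0083, adjusted 0.012) and in 5 of 6 sets (exact p = 0.16). Of all 5036 genes with enough counts, 59.9% had a lower 5′ UTR share in 12 of 12 pairs, so that the members shared this with most genes.

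The first CDS segment, which starts the signal sequence, held a smaller share in pulldowns for Cst3 and Bsg over pairs, and neither passed over sets after adjustment. It went from 60.4% ± 8.6 of CDS counts to 51.0% ± 10.2 for Cst3 (12 of 12 pairs, exact permutation p = 0.00049, adjusted 0.0015, and 6 of 6 sets, exact p = 0.031, adjusted 0.056) and from 9.62% ± 3.30 to 5.15% ± 3.00 for Bsg (11 of 12 pairs, exact permutation p = 0.0015, adjusted 0.0033, and 5 of 6 sets, exact p = 0.094). For Ly6h the shares were 14.8% ± 4.5 and 13.1% ± 3.6 (lower in 8 of 12, exact permutation p = 0.081). Of 4924 genes, 47.6% were lower in 12 of 12 pairs. The 3′ UTR share was at most 2.67% in these libraries and higher in pulldowns by 0.43 points for Bsg (10 of 12 pairs, exact permutation p = 0.0039, adjusted 0.0070) and 0.34 for Ly6h (10 of 12, p = 0.013, adjusted 0.016), and for both in 6 of 6 sets (exact p = 0.031, adjusted 0.056). The Bsg difference was 0.23 points without replicate 1. That of Ly6h was 0.20 without replicate 1 (exact permutation p = 0.078) and 0.37 without replicate 2 (0.055), and it did not pass without the DHPG pairs either (0.070). Of 4993 genes, 17% were higher in at least 10 of 12 pairs and 5.17% in 12 of 12. The difference of 0.07 points for Cst3 (6 of 12, exact permutation p = 0.039) rested on 0 to 6 counts per library and did not pass over sets (exact p = 0.12), without the DHPG pairs or on leaving out any replicate. In the knockdown, described only, the 5′ UTR share of Cst3 was 34.8% on average in resting inputs, 7.19% and 7.95% in resting pulldowns and 17.6% and 18.1% in depolarized pulldowns, against 35.3% in depolarized inputs. For Bsg it averaged 14.6% in inputs and 1.75% in pulldowns at rest, and 15.9% and 9.63% after KCl. For Ly6h it averaged 22.3% and 6.55% at rest, while after KCl the pulldowns (28.1%) were not below the inputs (27.3%).

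Families and partners of the members were mixed, and their counts are to be read against the 16.4% of all genes that fell and the 14.7% that rose in the resting TurboID-PSD95 comparison. In the basigin family, Nptn (neuroplastin), a close relative of Bsg in synapses, fell by 0.57 ± 0.19 in the resting TurboID-PSD95 comparison (adjusted p = 0.025) and by 0.87 ± 0.07 in DHPG, and Emb (embigin) had -0.47 ± 0.37 at rest (adjusted p = 0.35). Of 3 monocarboxylate transporters tested 2 rose. Slc16a1, which Bsg escorts, rose by 1.53 ± 0.29 (adjusted p = 0.0012) and Slc16a7, whose partner is embigin, by 1.34 ± 0.41 (adjusted p = 0.018). Of 2 cystatins tested both fell, the other being Cstb (stefin B), a cytosolic inhibitor with no signal sequence, by 1.77 ± 0.39 (adjusted p = 0.0023). Of 8 Ly6 and uPAR domain proteins 2 fell, near the share of all genes, Ly6h and Ly6e (-0.71 ± 0.24, adjusted p = 0.027), while Lypd1, an inhibitor of nicotinic receptors, had -0.09 ± 0.35. Of 5 nicotinic receptor subunits 3 rose, such as Chrna7 by 0.82 ± 0.20 (adjusted p = 0.0042).

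Of 26 secreted proteins of neurons and glia, 12 fell and 3 rose in the resting TurboID-PSD95 comparison, with a median of -0.76 against -0.04 over all genes, of which 16.4% fell and 14.7% rose. Psap (prosaposin) fell by 0.85 ± 0.17 and Reln (reelin), with a long CDS, rose by 1.08 ± 0.30. In DHPG 20 fell and 3 rose, with a median of -1.30, where 39.3% of all genes fell and 40.5% rose with a median of 0.045. Of 24 genes of ER targeting and translocation 10 fell and 2 rose at rest. Sec61a1, the pore of the channel, rose by 0.76 ± 0.20 (adjusted p = 0.0070), while its small partner Sec61b fell by 1.26 ± 0.36 (adjusted p = 0.010). Of 16 ER folding proteins 9 fell and 1 rose, of 14 genes that make or attach GPI anchors 2 fell and 5 rose, of 4 cyclophilins, a family with extracellular ligands of Bsg, 2 fell, and of 7 cysteine proteases 0 passed. Of 18 GPI-anchored proteins 5 fell and 0 rose, and of 28 cytosolic proteins 15 fell and 3 rose with a median of -0.45. Type I membrane proteins, the class of Bsg, had 5 falls and 6 rises among 24 and a median of 0.04. In resting knockdown inputs 8 of 26 secreted proteins were lower and 1 higher than in resting inputs, with a median of -0.59 against -0.02 over all genes, of which 2.01% were lower and 1.89% higher. Marker sums differed there too. They were lower for oligodendrocytes (227 to 234 against 281 to 659 CPM), fibroblasts and meninges (502 against 612 to 733 CPM), and higher for microglia (19.6 to 21.9 against 2.08 to 3.82 CPM) and endothelium (114 to 119 against 51.3 to 86.3 CPM). Those of neurons, astrocytes and progenitors overlapped, and the part of cell types in the list was not tested.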

How the data were processed

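The authors aligned reads to mm10 with Rsubread and counted the 5′ ends of footprints of 25 to 100 nt per exon segment with plastid, with an offset of 0 nt. The deposited values are raw whole-number counts for each segment of UCSC known transcripts, in the CDS, 5′ UTR and 3′ UTR of each library. Alignment names in the file headers say that ribosomal RNA and duplicates were removed, which can flatten sharp peaks, and handling of strand is not given in the sources used here. Of 67238 coding transcripts 66664 were matched to GENCODE M21, and the longest per gene was used. Regions of other transcripts within the 3 loci narrowed the place of counts.

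CDS counts were fitted with edgeR 4.0.16 in R 4.3.3 (TMM, filterByExpr, robust quasi-likelihood F test, Benjamini-Hochberg adjustment over all genes, FDR 0.05). The 24 libraries of the KCl experiment shared a fit, as did the 6 of DHPG, the 8 of the knockdown and, for knockdown against no knockdown, 20 libraries. Except in the DHPG fit, libraries that may have entered the choice thus also entered the estimates of spread. Each standard error is the absolute fold change divided by the square root of F. The script was tested on simulated data. The members and gene lists were chosen with earlier results of these data known. Text names the members, Eif4g2, the 5 most alike genes of each member, list genes by level or call, and other genes chosen after their values were seen where a gain of segment share is described. Shares were compared by exact paired permutation over 12 pairs and, added after seeing the data, over 6 means of libraries processed together. Alternatives were RLE scaling, no filter, the likelihood ratio test of the study's methods, DESeq2, other transcripts or segments, the length trend, the replicate block and each replicate left out. The study calls the replicates biologically independent without saying whether they came from separate animals, and p-values measure the spread between these libraries. Between replicates chi-square per degree of freedom was 1.48 to 47.5, above counting error. Same-numbered input and pulldown libraries deviated together in the KCl experiment (r from 0.28 to 0.63, 12 pairs), and by the methods they share a culture. Sequences are from GRCm38.p6, which is mm10.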

Additional observations from a re-analysis of the deposited data

Results flagged for a closer look

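In the knockdown, the pulldown lay above the input of its own number in both resting cultures and below it in both depolarized cultures for each of the 3 genes, and this opposite direction was not tested, because the depolarized knockdown pulldowns were used to choose the genes. The mean log2 ratios of pulldown to input differed by 2.77 for Bsg, where the ratios were 0.80 and 1.24 at rest and -1.73 and -1.78 after KCl. They differed by 2.35 for Cst3, with 0.78 and 0.84 at rest and -1.42 and -1.67 after KCl. They differed by 2.23 for Ly6h, with 0.70 and 0.74 at rest and -1.58 and -1.45 after KCl. The level above the input at rest came with 1 segment of each gene. Without it, the mean of the resting knockdown pulldowns was 77.5% of that of the inputs for Bsg, 69.6% for Cst3 and 44.0% for Ly6h. How many of all genes had such opposite directions was not counted. Groups of 2 or 3 libraries are too small for the search for single outlying samples.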

How the results depend on the processing

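Of 228 values of the 3 genes with a test, 200 kept their side of the threshold over the alternatives. Of 48 shares along the mRNA 34 were counted as unchanged, and 43 of 68 counts of genes stayed within 1.5 times. A change of sign among tested values was counted only where at least 1 of the 2 values passed. Ly6h in the KCl response, for example, ran from -0.16 to 0.14 on leaving out replicates. Of 203 values given as descriptions 142 moved by less than their error, 53 moved by more and 8 changed sign. The causes were not tested.

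With the trend on CDS length removed, 2587 genes passed in the resting TurboID-PSD95 comparison (4056 before), 373 in the resting Pan-TurboID comparison (1253) and 328 in the depolarized one (1144). Cst3 went to -0.083 and Ly6h to -0.095 in the first, Cst3 to -0.19 in the second, Ly6h to 0.16 in DHPG, and Bsg to -0.76 with a pass in resting knockdown inputs. The depolarized knockdown pulldown over its input became -1.52, -0.29 and -0.26 for Bsg, Cst3 and Ly6h. Taking the length of Bsg without its unused exon, an alternative chosen after seeing the data, gave -1.16 there and -0.69 with a pass in resting knockdown inputs. Over the resting one it became -1.90 for Cst3 and -2.16 for Ly6h, over the depolarized pulldown without knockdown 0.30 for Cst3, and the knockdown inputs gave -0.12 for Ly6h.

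Without the segment, the depolarized knockdown pulldown lay at -1.85, -1.93 and -1.82 over its input and at -1.31, -0.83 and 0.0023 over the resting one, the resting one at -0.26, -0.42 and -1.06 over its input, and Ly6h at -0.96 in resting knockdown against resting pulldowns. This alternative was chosen after seeing the data. With all distinct CDS segments, Cst3 gave -1.19 over the input, and Cst3 -2.002 and Ly6h -1.59 over the resting pulldown, and the transcript with the highest count gave -1.68 for Ly6h there and -0.89 with a pass in resting Pan-TurboID. The longest CDS segment in place of the first gave 0.041 points for Bsg and 3.95 for Ly6h, and without the DHPG pairs the 3′ UTR differences of Cst3 (0.058) and Ly6h (0.31) did not pass. With 1 mean per replicate set, added after seeing the data, the 5′ UTR (-2.87) and first segment (-3.14) of Bsg and the 3′ UTR of Cst3 (0.090) did not pass.

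DESeq2 passed 2111 genes in the resting and 2186 in the depolarized Pan-TurboID comparison and 896 in resting knockdown inputs (515 in the quasi-likelihood test), and the likelihood ratio test 1908, 1826 and 783. Both passed Ly6h in the first (-0.76 and -0.78), Bsg (-0.67 and -0.67) and Cst3 (-0.79 and -0.79) in the second and Bsg in the last (-0.74 and -0.74). Bsg also passed there with no filter (-0.74). The fit of those 2 groups alone, added after seeing the data, passed 1993 genes with Bsg at -0.75 and Ly6h at -0.65. TurboID-PSD95 inputs alone passed 558 genes in the KCl response (1999 with both baits).

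With the replicate number as a block, 2424 genes passed at rest and 2436 after depolarization with Pan-TurboID, where Bsg (-0.61) and Ly6h (-0.79), and Bsg (-0.71) and Cst3 (-0.79), passed. The block changed no other call of the 3 genes. It could not be fitted for knockdown against no knockdown, where a number marks different cultures. Leaving out 1 replicate at a time, the counts ran from 16 to 3599 in the resting TurboID-PSD95 comparison, 0 to 1225 and 0 to 592 in the Pan-TurboID comparisons (edgeR quasi-likelihood), 517 to 2095 in the KCl response and 2 to 169 in resting knockdown inputs. Bsg ran from -1.01 to -0.90, Cst3 from -1.01 to -0.83 and Ly6h from -1.03 to -0.87 in the first, Cst3 from -1.05 to -0.83 in resting Pan-TurboID and from 0.19 to 0.73 in the KCl response. In the knockdown, left with 1 library a group and no test, Cst3 ran from -1.61 to -1.31 over the input, Bsg from -2.79 to -2.24 and Cst3 from -1.89 to -1.67 over the resting pulldown, and Cst3 from -0.59 to 0.080 over the depolarized pulldown without knockdown. The 5′ UTR difference of Bsg ran from -5.13 to -4.15 points, the 3′ UTR differences of Bsg from 0.23 to 0.57, of Cst3 from 0.052 to 0.095 and of Ly6h from 0.20 to 0.45, and the first segment of Ly6h from -2.59 to -0.81. A planned search for hydrophobic stretches was not run, since no protein sequences were at hand.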

Other observations

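The members were not the lowest genes of the depolarized knockdown pulldown over its input. Among 9210 genes with a mean of at least 10 CPM, the lowest fitted log2 fold changes were -4.74 ± 0.81 (SE) for Nudt8 and for Gm49405, which share a locus and their counts, -4.15 ± 0.30 for Tmem242, -4.12 ± 0.35 for Hist1h2ad, a histone H2A gene with near-identical copies, and -3.51 ± 0.39 for Tm2d1. Bsg ranked 603, Cst3 917 and Ly6h 956, at mean levels of 789, 322 and 263 CPM against 10.0 to 41.8 CPM for the 5 lowest.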
